A study of Mus musculus with 16 samples.

Results

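Intronic lncRNA tags are the pairs of H3K27me3-RADIP and Input in which the RNA tag was annotated by the authors to a long noncoding RNA (lncRNA) and to an intron of it. RADIP joins an RNA to nearby chromatin DNA through a bridge adaptor, and an antibody against H3K27me3 then selects the joined molecules. Both groups came from mouse embryonic stem cells (mESCs) of the single line PGK12.1, grown with Leukemia Inhibitory Factor and fixed with 1% formaldehyde. Input was the part of the same kind of material that was not selected with antibody. There are 8 libraries of each condition in the labels for the 4 biological replicates named in the methods of the study, and the authors merged all of them, so each condition is a single table of significant pairs. A line of a table is 1 pair of a 25-base RNA tag and a 25-base DNA tag, and a pair is listed only where the combination of its RNA and the 25-kb DNA bin passed an adjusted *P*-value of 0.1. The members numbered 28034 of 1305107 pairs in Input and 32539 of 1415135 pairs in H3K27me3-RADIP, together 60573 of 2720242. They belonged to 1194 lncRNAs, of which 788 were found in Input, 945 in H3K27me3-RADIP and 539 in both. No error between replicates can be given. The intervals below are 95% intervals that cover counting error only, and they compare these merged tables, not the conditions. Fewer cells with an RNA and less of it per cell cannot be told apart, nor can the amount of an RNA and how often it was joined to DNA.

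The label was checked against the gene models of GENCODE M21 on mm10. Of the 1194 identifiers 1192 were found there, and no tag of these lay on the strand opposite to its gene. The centre of the RNA tag lay in an intron for 98.7% of the Input pairs and 98.8% of the H3K27me3-RADIP pairs, and in the first intron of at least 1 transcript in 61.6% and 62.5%. A total of 118 lncRNAs overlapped a coding gene on their own strand, with 23.99% of the Input pairs and 23.4% of those of H3K27me3-RADIP, and 17.1% and 16.7% of all intronic lncRNA tags had their centre inside such a gene, where the tag alone does not tell the genes apart. Of 10 stem cell genes pairs were found for 4 (Input) and 5 (H3K27me3-RADIP), among them *Esrrb* with 2388 and 2500 pairs, while *Pou5f1* and *Nanog* had none. The 8 genes of differentiated cells had 31 and 55 pairs in all.

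An intron is transcribed as part of the primary RNA and is removed by splicing. An intronic tag can come from nascent or unspliced RNA, from a kept intron or from an intron already cut out, and the tables do not tell these apart. Many lncRNAs are spliced slowly and stay near their gene. H3K27me3 is the mark set by the Polycomb complex PRC2 on silent genes, and several lncRNAs, including the antisense RNAs of imprinted genes and those of the X inactivation centre, are known for acting on chromatin close to where they are made. Pairs of lncRNAs were mostly intronic in these tables, at 71.7% in Input (71.3 to 72.2) and 63.7% in H3K27me3-RADIP (63.3 to 64.2). Leaving out abundant lncRNAs with few or no introns brought these shares together. Without *Kcnq1ot1*, the unspliced antisense RNA of an imprinted domain, the shares were 83.1% and 81.5%, and without *Malat1* and *Neat1*, the RNAs of nuclear speckles and paraspeckles, as well they were 88.7% and 89.4%. Of all pairs, intronic lncRNA tags made up 2.15% in Input (2.12 to 2.17) and 2.30% in H3K27me3-RADIP (2.27 to 2.32). The latter was higher by 0.151 percentage points (0.116 to 0.186), and by 0.0384 points (0.00284 to 0.0739) where the RNA and its bin were present in both tables.

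The sequences below show which stretch of intron was caught most often in the 6 lncRNAs with the most pairs. They also show a tag of each of the lncRNAs with the highest and the lowest ratio between the tables among those with at least 50 pairs. Each was read from mm10 on the strand of the RNA, with the position of the tag taken as counted from 1, as the region labels follow. A count from 0 would move it by 1 base. The capital letter is the base at the centre of the tag, which set the annotation and the distance.
Pvt1: cttgtttggtaaGcactcatcatgt
Gm50252: tgataaagtcatGactgactcaggt
Tsix: ctgcctggtggtGtaggcctttaat
Trerf1: tgtcccttctctCtaatgagatcac
Rian: tcatttatctttTtcaagggacctc
Lncpint: gcgacaacctggAggagtaacagtt
Lncppara: tgtgtagaccagGtaggccttgaac
2500002B13Rik: tctgcagactacTcatcaaaactta

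The *Pvt1* tag lies at chr15:62148929-62148953 on the plus strand, in an intron of 41.8 kb that is the second of its transcript. It was found in 38 pairs of Input and 36 of H3K27me3-RADIP, with DNA tags in 51 different bins. Of the 8331 tag positions of *Pvt1* it was the most frequent, yet it made up 0.659% of the pairs of this RNA. Its DNA tags lay at a median of 369 kb (Input) and 846 kb (H3K27me3-RADIP), and 12 and 16 of them lay over 1 Mb away. Such repeated use of a position was rare in the class. Of 50745 tag positions 85.7% were seen in a single pair, 1714 were found in both tables and 30 had at least 10 pairs, 21 of these in *Pvt1*.

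The other tags were caught less often. The *Gm50252* tag at chr17:30512262-30512286 on the minus strand was found in 7 and 6 pairs. The *Tsix* tag at chrX:103459691-103459715, in the first intron, was found in 6 and 7 pairs, and the *Trerf1* tag at chr17:47198427-47198451 in 5 and 5. The *Rian* tag at chr12:109629303-109629327 was found in 4 and 8 pairs, and the *Lncpint* tag at chr6:31215759-31215783, on the minus strand, in 3 and 5. The tags of *Lncppara* at chr15:85689322-85689346 and of *2500002B13Rik* at chr8:57488499-57488523 were found in 0 and 4 and in 0 and 2 pairs, so neither RNA had a leading position.

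The pairs were unevenly spread over lncRNAs. The 10 with the most pairs, out of 788 in Input and 945 in H3K27me3-RADIP, made up 40.8% and 37.8% of the class. The 10 leading protein-coding RNAs (pcRNAs) made up 6.68% and 8.02% of the intronic pcRNA pairs. These were 10 out of 9192 and 9488 pcRNAs, a smaller part of their class. *Pvt1*, the lncRNA gene next to the oncogene *Myc*, had 5513 Input pairs and 5722 H3K27me3-RADIP pairs, or 19.7% and 17.6% of the class. Per pair of the whole table this was a ratio of H3K27me3-RADIP to Input of 0.957 (0.922 to 0.993). *Gm50252*, which overlaps *Btbd9* and *Glo1* on the same strand, had 1556 and 1640 pairs (ratio 0.972, 0.906 to 1.04). *Trerf1*, here annotated as a noncoding transcript, had 809 and 811 (0.925, 0.838 to 1.02).

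*Tsix*, the antisense RNA of *Xist*, had the highest ratio among the 10. All its tags had their centre inside the coding gene *Gm26992* on the same strand. Input held 822 of its pairs and H3K27me3-RADIP held 1141 (ratio 1.28, 1.17 to 1.40). *Rian*, an imprinted lncRNA that carries small nucleolar RNAs in its introns, had 494 and 573 pairs (1.07, 0.947 to 1.21). *Lncpint*, a lncRNA induced by p53, had 479 and 563 (1.08, 0.958 to 1.23), and *Firre*, an X-linked lncRNA known for contacts with other chromosomes, had 485 and 553 (1.05, 0.929 to 1.19). Below these were *Gm28039*, which overlaps *Zfp644*, with 421 and 454 pairs, *1600020E01Rik* with 434 and 391, and *Gm45846*, which overlaps *Tnrc6a*, with 414 and 401. Apart from *Tsix*, the interval excluded 1 only for *Pvt1* and for *1600020E01Rik* (0.831, 0.723 to 0.955) among the 10.

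**Figure D1:**
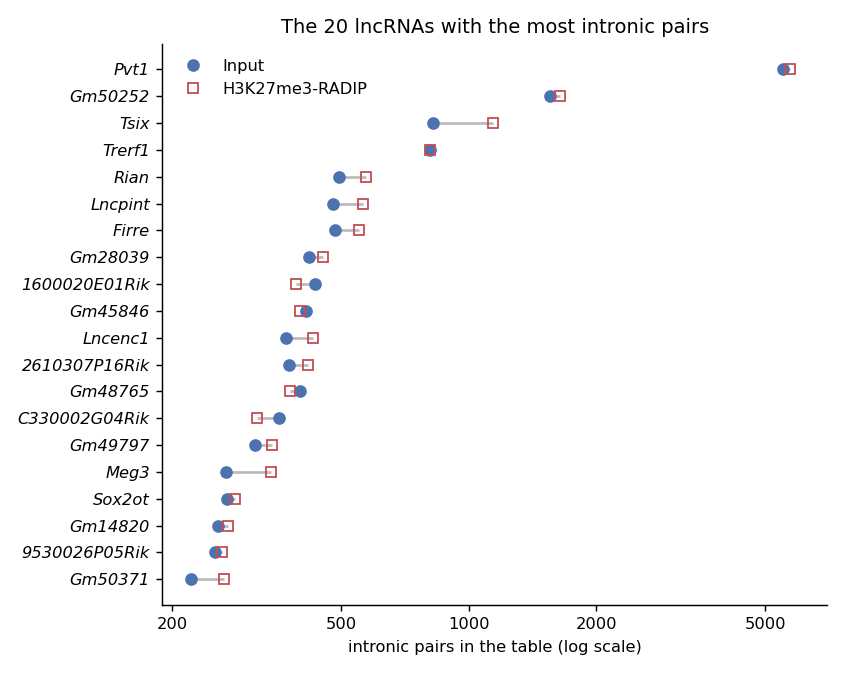
Number of intronic pairs in Input (filled circles) and H3K27me3-RADIP (open squares) for the 20 lncRNAs with the most pairs, on a log scale with 1 row per RNA. *Pvt1* stands alone with 5513 and 5722 pairs, and *Tsix*, with 822 and 1141, shows a wide gap between the tables.

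Pairs of intronic lncRNA tags lay close to the gene in both tables. The median distance between the RNA tag and the DNA tag was 21.2 kb for Input and 23.4 kb for H3K27me3-RADIP, and their ratio was 1.10. For intronic pcRNA tags the medians were 49.6 and 76.3 kb, and for exonic lncRNA tags 112 and 362 kb. Under 1 kb lay 17.5% and 17.2% of the intronic lncRNA pairs, compared with 8.51% and 7.07% of the intronic pcRNA pairs. The DNA tag lay inside the gene of its own RNA in 62.6% and 60.4% of the lncRNA pairs, and in 57.2% and 48.9% of the pcRNA pairs. Of the pairs that left the gene, 59.7% and 59.5% lay downstream of it.

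The share of long-range *cis* pairs (over 100 kb) was 29.9% for Input and 31.1% for H3K27me3-RADIP, which differ by 1.19 percentage points (0.459 to 1.93). The same difference was 7.32 points (7.20 to 7.45) for intronic pcRNA tags and 16.5 points (15.2 to 17.7) for exonic lncRNA tags, so the intervals of the 3 classes did not overlap. Over 1 Mb lay 6.16% and 7.75% of the intronic lncRNA pairs, which was 1.59 points more in H3K27me3-RADIP (1.18 to 1.99), beside 2.72 points (2.65 to 2.78) for intronic pcRNA tags. The result over 100 kb rested in part on lncRNAs that share a strand with a coding gene. Without them the difference was 0.0272 points (-0.807 to 0.860) and the ratio of the medians was 0.999, and without the tags inside a coding gene alone it was 0.287 points (-0.506 to 1.08). Where the RNA and its bin were present in both tables it was 0.442 points (-0.422 to 1.31), and for lncRNAs found in both tables it was 2.59 points (1.80 to 3.38), with a ratio of the medians of 1.24. With a q-value limit of 0.01 it was 0.529 points (-0.295 to 1.35), and without *Pvt1* 2.06 points (1.34 to 2.78), from 20.3% to 22.4%. The difference over 1 Mb was 0.869 points without *Pvt1*, 0.329 without the 10 leading lncRNAs, 0.612 with a q-value limit of 0.01, 0.206 with each lncRNA weighted equally and -0.0814 where the RNA and its bin were present together in both tables.

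**Figure D2:**
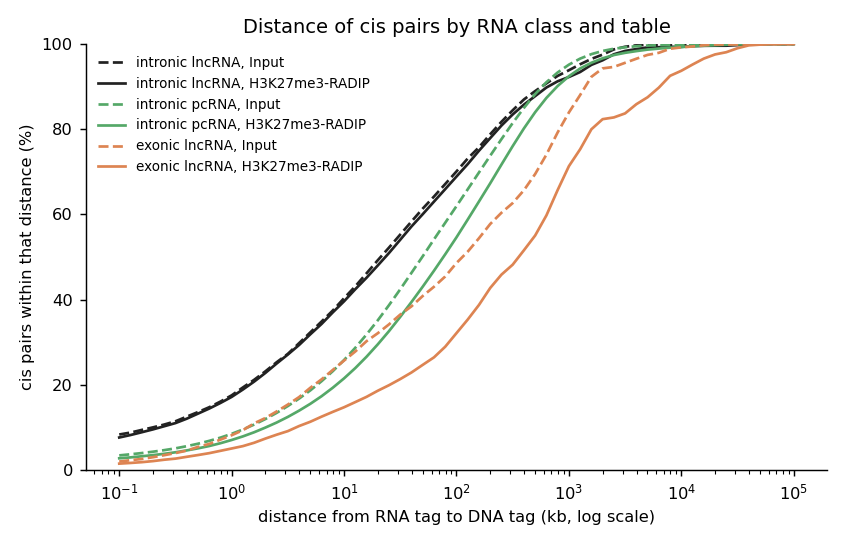
Share of *cis* pairs (%, vertical axis) whose DNA tag lay within a given distance of the RNA tag (kb, log scale), for 3 classes of RNA tag in Input (dashed) and H3K27me3-RADIP (solid). The curves of intronic lncRNA tags almost coincide, with medians of 21.2 and 23.4 kb, whereas those of intronic pcRNA tags and exonic lncRNA tags lie apart.

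Distance followed the number of pairs of an RNA. Among lncRNAs with at least 200 pairs in both tables together, which were 38, the share over 100 kb was 47.9% in Input and 52.4% in H3K27me3-RADIP, and 84.2% of them had a longer median in H3K27me3-RADIP. Among the 243 with 20 to 49 pairs the shares were 1.07% and 0.919%, and 56.0% had a longer median. The corresponding pcRNAs were alike for at least 200 pairs, with 44.9% and 52.7% over 100 kb and 83.1% longer. From 50 to fewer than 200 pairs, 56.6% of 106 lncRNAs and 67.0% of 2628 pcRNAs had a longer median. The fewest pairs of an RNA at a listed bin were 7, exonic and intronic tags counted together, and the part of this limit in the distances was not tested.

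Nearly all pairs over 1 Mb came from 3 RNAs. *Pvt1*, *Firre* and *Tsix* supplied 1713 of the 1726 such pairs in Input (99.2%) and 2375 of 2521 in H3K27me3-RADIP (94.2%). Only 6 lncRNAs had a pair over 1 Mb in Input and 11 in H3K27me3-RADIP, and 108 and 114 had one over 100 kb.

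*Pvt1* had 1702 and 1599 pairs under 100 kb, 2289 and 2078 pairs from 100 kb to 1 Mb, 1476 and 1828 from 1 to 10 Mb, and 46 and 217 beyond 10 Mb. Of all its pairs, 27.6% in Input and 35.7% in H3K27me3-RADIP lay over 1 Mb away, which differ by 8.13 points (6.42 to 9.84), and over 10 Mb the ratio per table total was 4.35 (3.15 to 6.12). Its pairs covered 179 bins in Input and 230 in H3K27me3-RADIP, with 148 in both. The bins outside the gene that were listed in H3K27me3-RADIP alone numbered 82, at a median of 3967 kb from the gene, compared with 947 kb for those in both tables. In Input 31 were listed alone, at a median of 2863 kb. No *Pvt1* bin over 10 Mb from the gene centre was listed in both tables. The fewest intronic *Pvt1* pairs in a listed bin were 9 in Input and 7 in H3K27me3-RADIP. The part of this limit in the ratio over 10 Mb was not tested.

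The bin of *Pvt1* with the most pairs outside the gene was the same in both tables. It was chr15:61975000-61999999, which holds *Myc* and lies upstream of *Pvt1*, with 138 Input pairs and 134 H3K27me3-RADIP pairs. The next bin towards *Pvt1* had 114 and 81 pairs. On the far side of *Myc* the adjoining bin had 62 and 63 and the one after it, chr15:61925000-61949999, had 48 and 77. Downstream of *Pvt1* the bin at chr15:62450000-62474999 had 41 and 67, while the bins on either side of it had 52 and 39 and 47 and 40. The bin at chr15:63725000-63749999, 1347 kb beyond the end of the gene, still had 40 and 54 pairs.

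*Firre* covered 33 bins in Input and 49 in H3K27me3-RADIP, with 18 in both. Under 100 kb it had 235 and 170 pairs, a ratio of 0.667 (0.544 to 0.816), and over 1 Mb 149 and 229, a ratio of 1.42 (1.15 to 1.75). Its median distance was 165 and 593 kb. Its total thus had an interval that included 1, while that of the pairs under 100 kb lay below 1 and that of the pairs over 1 Mb above it. The bins over 1 Mb from the gene centre that were listed in both tables had no more pairs in H3K27me3-RADIP. They had 9 and 9, 11 and 6, 10 and 8, 12 and 9, and 10 and 10 pairs. The higher count over 1 Mb thus lay in bins listed in 1 table only, and the part of the limit for listing was not tested.

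*Tsix* covered 43 and 48 bins. Under 100 kb it had 371 and 433 pairs (1.08, 0.935 to 1.24), from 100 kb to 1 Mb 409 and 607 (1.37, 1.21 to 1.56), and over 1 Mb 42 and 101 (2.22, 1.53 to 3.26). Most of its outside pairs lay downstream, with 417 of the 556 Input pairs and 661 of the 871 H3K27me3-RADIP pairs. The bin next downstream at chrX:103500000-103524999 had 35 and 74 pairs. Over 1 Mb from the gene centre, the *Tsix* bins listed in both tables had 7 and 7 and 9 and 13 pairs. The others there were listed in 1 table only, and the part of the limit for listing in the ratio over 1 Mb was not tested.

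**Figure D3:**
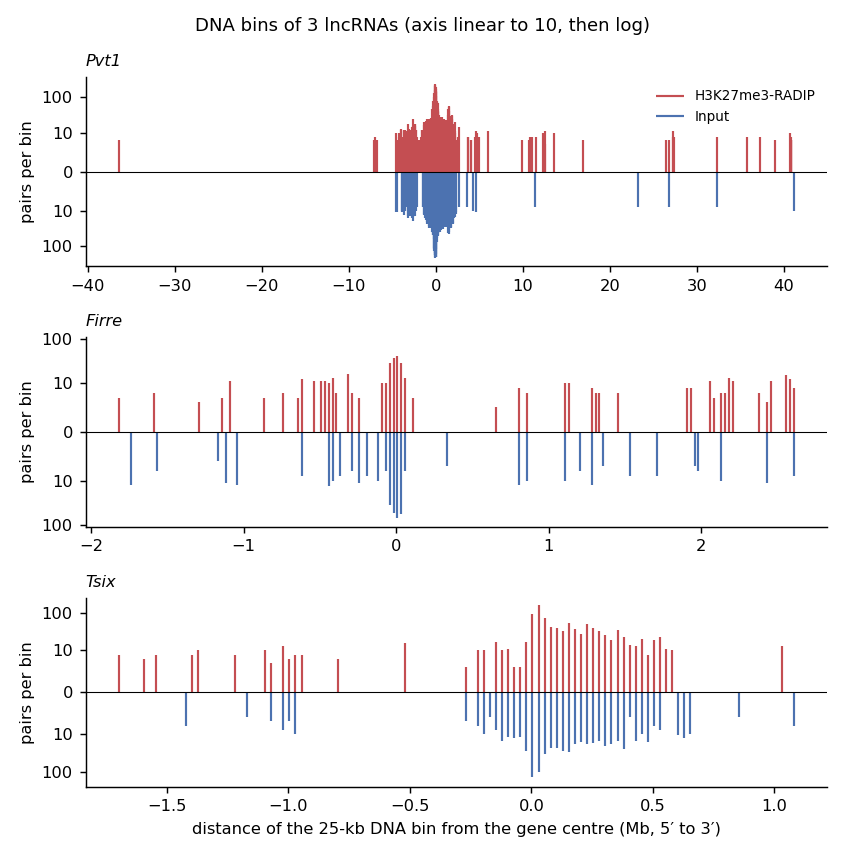
Pairs per 25-kb DNA bin of *Pvt1*, *Firre* and *Tsix* by distance of the bin from the gene centre (Mb, in the direction of transcription), with H3K27me3-RADIP above and Input below the line. The vertical axis is linear to 10 pairs and logarithmic beyond. *Pvt1* had 217 pairs over 10 Mb in H3K27me3-RADIP and 46 in Input, and *Tsix* had more of its outside pairs downstream than upstream.

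The remaining long-range lncRNAs had few such pairs in Input. *Gm48765*, which overlaps the coding gene *Lyrm4*, had 5 pairs over 1 Mb in Input and 56 in H3K27me3-RADIP, while its total was 400 and 379. *Gm50252* had 3 and 13. *Rian* had 0 and 22, and *Trerf1* 0 and 17. The 22 pairs of *Rian* lay in bins with 3 to 7 intronic pairs each. A bin below the limit for listing counts as 0 in these numbers. *Meg3* had 5 and 10. *Rian* pairs under 100 kb numbered 258 and 176, against 236 and 375 from 100 kb to 1 Mb.

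In number of bins *Pvt1* was followed by *Gm50252* (53 in Input and 58 in H3K27me3-RADIP), *Rian* (42 and 57), *Tsix* (43 and 48), *Firre* (33 and 49) and *Trerf1* (33 and 34). Most lncRNAs were at the other end of the range. A single bin was listed for 500 of the 788 in Input (63.5%) and 609 of the 945 in H3K27me3-RADIP (64.4%), compared with 34.5% and 34.9% of pcRNAs. The lncRNAs seldom met in a bin. Of 1935 DNA bins in Input 65 held more than 1 lncRNA, and of 2343 in H3K27me3-RADIP 94 did.

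LncRNAs found in 1 table only numbered 249 of 788 in Input (31.6%, 28.4 to 34.9) and 406 of 945 in H3K27me3-RADIP (43.0%, 39.8 to 46.1). Over all combinations of an RNA, its class and region the shares were 22.6% and 24.3%, and for intronic pcRNA tags 12.2% and 14.9%. Part of the gap between lncRNAs and pcRNAs went with the number of pairs. With 1 to 6 intronic pairs in the table, the share found there only was 53.8% of 80 lncRNAs (Input) and 68.1% of 116 (H3K27me3-RADIP), compared with 40.6% and 47.1% of pcRNAs. With 7 to 9 pairs in the table, 48.5% and 59.9% of lncRNAs were found there only, compared with 34.3% and 40.0% of pcRNAs. With 10 to 19 pairs it was 22.4% and 38.6%, compared with 14.2% and 16.3%. With 20 to 49 pairs it was 7.44% and 7.94%, compared with 2.66% and 3.31%, and no lncRNA with at least 50 pairs was absent from the other table. The share was thus above that of pcRNAs in each of these ranges below 50 pairs.

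LncRNAs found in 1 table only had few pairs, which the limit for listing favours. Their median was 8 pairs in each table, and 221 of the 249 and 351 of the 406 had a single bin. Short distances also went with few pairs among lncRNAs found in both tables. With 20 to 49 pairs in both together, the median of their median distances was 2.15 kb (Input) and 2.28 kb (H3K27me3-RADIP). For lncRNAs found in 1 table only the median distance was 1.35 and 1.56 kb, compared with 27.7 and 34.4 kb for all those found in both tables. In Input the most frequent were *Gm32592*, an antisense lncRNA, with 36 pairs and none in H3K27me3-RADIP, *Gm49448* with 23 and *Gm17106* with 23. Next came *5033421B08Rik*, *Gm31333* and *Gm28981*, each with 21. An RNA was listed at a bin only with 7 or more pairs of all its regions together, so absence from a table gives no bound on the fold. In H3K27me3-RADIP the most frequent were *A230108P19Rik* with 30 pairs and none in Input, *Gm31374* with 25, *Gm16863* and *Gm29506* with 24 each, and *4930488L21Rik* with 23.

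Among combinations of a lncRNA and a bin, 721 of 2013 in Input (35.8%, 33.8 to 37.9) and 1160 of 2452 in H3K27me3-RADIP (47.3%, 45.3 to 49.3) were listed in that table only, and 1292 were shared. Over all such combinations, with each class and region of an RNA taken apart, the shares were 39.1% and 44.6%, and for intronic pcRNA tags 23.3% and 32.9%. Where the lncRNA itself was in both tables, the bins listed in H3K27me3-RADIP only had pairs at a median of 67.2 kb, with 45.6% over 100 kb, compared with 29.96 kb and 31.9% in the shared bins. In Input the bins listed only there were at 31.0 kb with 37.2% over 100 kb, compared with 27.2 kb and 31.4%. In the shared bins taken alone the difference over 1 Mb was -0.0814 points (-0.521 to 0.358), which includes 0, whereas over all bins it was 1.59 points.

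Of the 407 lncRNAs with at least 20 pairs in both tables together, 63 were at least 2-fold higher in H3K27me3-RADIP (15.5%) and 57 at least 2-fold lower (14%), per pair of the table. Over all 10801 combinations of RNA, class and region the shares were 7.43% and 11.2%, and among intronic pcRNA tags 7.87% and 11.5%. Of the called lncRNAs 10 had no pair in Input and 9 had none in H3K27me3-RADIP. These were counted with 3 pairs in the table that lacked them, although 6 or more in a bin could go unlisted. Of the 388 lncRNAs with pairs in both tables, 53 (13.7%) were at least 2-fold higher and 48 (12.4%) at least 2-fold lower, compared with 7.02% and 10.9% of pcRNAs, a restriction chosen after the data were seen. With 20 to 49 pairs 17.9% of 263 lncRNAs were higher and 19.8% lower, compared with 15.6% and 20.1% of pcRNAs. With 50 to 99 pairs 17.1% of 70 lncRNAs were higher and 4.29% lower, compared with 9.10% and 12.97% of pcRNAs. With at least 100 pairs it was 5.41% and 2.70% of 74 lncRNAs, compared with 1.82% and 4.64%. The median ratio was 1.06 for the 407 lncRNAs, 0.956 for pcRNAs and 0.949 for all.

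Among the 144 lncRNAs with at least 50 pairs, the interval of the ratio lay above 1 for 35 and below 1 for 18, or 24.3% and 12.5%. Over all combinations of RNA, class and region of that size the shares were 17.5% and 23.3%, and among intronic pcRNA tags 19.4% and 26.1%. The highest ratio was that of *Lncppara*, with 12 pairs in Input and 60 in H3K27me3-RADIP (4.61, 2.46 to 9.42), followed by *4933431K23Rik* with 10 and 41 (3.78, 1.86 to 8.47). *Gm48591*, whose gene is inside *Rassf3* and shares its strand, had 20 and 68 pairs (3.14). *A930037H05Rik*, an example that the study drew from these data, had 16 and 51 (2.94), and *C230014O12Rik* had 15 and 44 (2.71). Each of these 5 was also listed in more bins in H3K27me3-RADIP, with *Lncppara* going from 1 bin to 3 and *A930037H05Rik* from 2 to 5.

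The lowest ratio was that of *2500002B13Rik*, with 44 pairs in Input and 18 in H3K27me3-RADIP (0.377, 0.205 to 0.666). *Dleu2*, the host gene of a microRNA cluster lost in leukaemia, had 44 and 20 (0.419), *Platr28* had 84 and 40 (0.439), *Gm28037*, which overlaps *Rpl24* and *Zbtb11*, had 70 and 35 (0.461) and *Platr4* had 38 and 19 (0.461). All 5 were listed in fewer bins in H3K27me3-RADIP, with *2500002B13Rik* in 5 bins in Input and 2 in H3K27me3-RADIP.

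**Figure D4:**
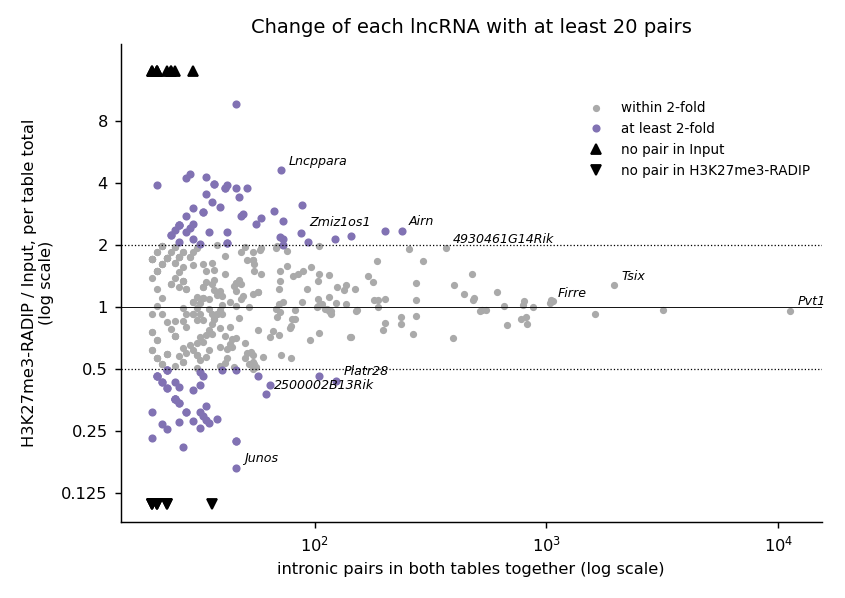
Ratio of H3K27me3-RADIP to Input per table total (log scale) against the number of intronic pairs in both tables together (log scale) for lncRNAs with at least 20 pairs, with dotted lines at 2-fold in either direction. Triangles at the top and bottom edges are lncRNAs with no pair in 1 table, whose ratio has no value. The spread narrows as pairs increase, and *Pvt1*, with 11235 pairs, lies at 0.957.

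Among imprinted lncRNAs, which are made from 1 parental allele, 6 of 9 listed names had intronic pairs and 5 had at least 20. Of these 1 was at least 2-fold higher and none lower, with a median ratio of 1.18. For this and the following lists, the shares to compare are the 15.5% higher and 14% lower of the class, and 7.43% and 11.2% over all combinations. The higher one was *Airn*, the antisense RNA across *Igf2r* and an example chosen by the study from these data, with 67 Input pairs over 5 bins and 171 H3K27me3-RADIP pairs over 13 bins (2.35, 1.76 to 3.17). Bins outside its gene were listed only in H3K27me3-RADIP, 7 in number, with 13 pairs in the leading bin over *Slc22a3*. *Meg3* had 268 and 342 pairs (1.18), *Gnasas1* 114 and 161 (1.30), and *Mirg* 47 and 56 (1.10). *Snhg14* had 12 and 0.

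All 4 listed lncRNAs of the X inactivation centre had intronic pairs. *Ftx*, which lies next to *Xist*, had 34 Input pairs and 55 H3K27me3-RADIP pairs (1.49, 0.956 to 2.36). *Jpx*, known as an activator of *Xist*, had 0 and 17, and *Xist*, the RNA that coats the inactive X, had 0 and 2. Besides *Tsix* and *Ftx* none had 20 pairs, and neither of these passed 2-fold.

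Of the pluripotency-associated lncRNAs 9 had intronic pairs and 7 had at least 20, of which 2 were at least 2-fold lower and none higher, beside 14% lower in the class and 11.2% over all. Their median ratio was 0.595, below the 1.06 of the class. *Lncenc1*, a lncRNA of naive stem cells, had 371 Input pairs and 430 H3K27me3-RADIP pairs (1.07, 0.928 to 1.23), so it did not share the low ratios. *Platr22* had 147 and 118 pairs (0.740, 0.576 to 0.9497), *Platr20* had a ratio of 0.542 and *Platr21* of 0.595.

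Lists of opposite-strand and host lncRNAs had medians above that of the class. Of 51 opposite-strand lncRNAs with intronic pairs 17 had at least 20, with 5 at least 2-fold higher, 2 lower and a median of 1.49, beside 15.5% higher and 14% lower in the class and 7.43% and 11.2% over all. One of the higher ones, *Zmiz1os1*, was picked as an example from these same data before, so its call is not independent. It had 57 and 144 pairs (2.33, 1.70 to 3.22), *Nkx2-2os*, opposite a neural transcription factor gene, 15 and 41 (2.52) and *Atcayos* 7 and 30 (3.95). The other higher ones were *Tspan32os* with 10 and 25 (2.31) and *Pax6os1* with 7 and 17 (2.24). *Junos*, next to the immediate early gene *Jun*, went the other way with 39 and 7 (0.166, 0.0625 to 0.374), as did *Rab10os* with 15 and 8 (0.492). Of the 51, 21 had no pair in Input and 6 had none in H3K27me3-RADIP, while of all 1194 lncRNAs 34% and 20.9% were absent from these tables. Of 13 host lncRNAs of small RNAs 5 had at least 20 pairs, with 2 higher, none lower and a median of 1.26. Among the 13, *Mir22hg* was absent from Input with 10 pairs in the other table, while *Mir99ahg*, *Snhg14* and *Mir17hg*, with 15, 12 and 2 Input pairs, were absent from H3K27me3-RADIP. *Snhg16* had 222 and 261 pairs (1.08) and *Mir100hg* 25 and 62 (2.29). *Mir670hg*, the other higher one, had 7 and 19 (2.50). *Mir9-3hg* had a ratio of 1.26 and *Snhg3* of 0.922.

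Of 10 lncRNAs linked to chromatin or disease 6 had intronic pairs and 4 had at least 20, of which 2 were higher and 1 was lower. *Fendrr*, a lncRNA of the heart and body wall that is known to bind PRC2, had 10 Input pairs and 37 H3K27me3-RADIP pairs (3.41, 1.66 to 7.69). The other higher one was *Lncppara* and the lower one *2500002B13Rik*, both named by the study. The study picked these from H3K27me3-RADIP and Input RNAs of this same contrast and showed *Fendrr* as an example from it, so the calls of this list followed from the choice of members and no share is set against them. *Kcnq1ot1*, *Malat1* and *Neat1* had no intronic pairs.

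By chromosome of the RNA, H3K27me3-RADIP had more intronic lncRNA pairs per table total than Input on 16 of the 20 chromosomes other than Y. The interval of the ratio lay above 1 on 11 and below 1 on 1. The whole class made up 2.15% of all pairs in Input and 2.30% in H3K27me3-RADIP, so a ratio above 1 is not particular to a chromosome. Per class total instead, the interval lay above 1 on chromosomes 2, 9, 10, 13, 14 and X and below 1 on chromosomes 15, 16 and 19. For all pairs of a chromosome, the ratio per table total was above 1 on chromosomes 4, 5, 7, 8, 11, 17 and 19. As a share of the chromosome's own pairs the class was higher on 14. The median distance was longer on 14 and the share over 100 kb higher on 13.

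Chromosome 14 had the highest ratio, with 482 pairs in Input and 786 in H3K27me3-RADIP (1.504, 1.34 to 1.69), while all pairs of this chromosome had a ratio of 0.947. *Zmiz1os1* led there, and without it the ratio was 1.39 (1.23 to 1.58). On chromosome 10 the ratio was 1.34 (1.18 to 1.53), from 402 and 586 pairs, and 1.41 without *E130307A14Rik*, which led there, and on chromosome 9 it was 1.31 (1.19 to 1.43), from 811 and 1148. *4930461G14Rik*, an example that the study drew from these data, led on chromosome 9 with 119 and 250 pairs (1.94, 1.55 to 2.43). Without this RNA the ratio was 1.197. On chromosome 2 it was 1.30 (1.19 to 1.43), with *Gnasas1* in the lead, and the same 1.30 without it. On all 4 the interval stayed above 1 without the leading RNA.

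Leaving aside chromosome Y, the lowest ratio was on chromosome 16, with 781 and 747 pairs (0.882, 0.797 to 0.976). *Gm49573*, which overlaps *Hic2* and *Tmem191c*, had 223 and 171 of them (0.707, 0.576 to 0.867), and without it the ratio was 0.952 (0.846 to 1.07). Chromosome 15 held 21.4% of the class in Input and 19.5% in H3K27me3-RADIP, with a ratio of 0.976 (0.942 to 1.01). *Pvt1* had 91.1% of its pairs, and without *Pvt1* the ratio was 1.195 (1.06 to 1.35). Chromosome 17, led by *Gm50252*, had 3410 and 3823 pairs (1.03, 0.987 to 1.08).

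The X chromosome differed from its own background. It had 1856 and 2316 intronic lncRNA pairs (1.15, 1.08 to 1.22), while all its pairs had a ratio of 0.758. The class made up 5.75% of the pairs of the X in Input and 8.74% in H3K27me3-RADIP. Without *Tsix*, which overlaps *Gm26992* and had 47.1% of these pairs, the ratio was 1.05 (0.963 to 1.14). The median distance on the X was 49.2 kb for Input and 106 kb for H3K27me3-RADIP.

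**Figure D5:**
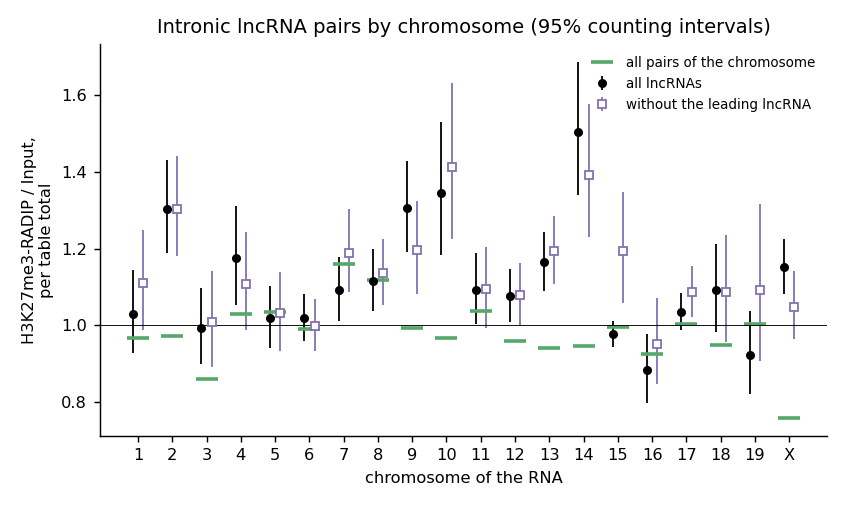
Ratio of H3K27me3-RADIP to Input per table total for intronic lncRNA pairs by chromosome (filled circles), the same without the lncRNA with the most pairs on that chromosome (open squares) and for all pairs of the chromosome (green dashes), without chromosome Y and with 95% counting intervals as vertical bars. Chromosome 14 is highest at 1.504 and chromosome 16 lowest at 0.882, and chromosome 15 lies at 0.976 with *Pvt1* and at 1.195 without it.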

How the data were processed

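The libraries of each condition were merged by the authors, who used BWA and mm10 for mapping, required unique mapping of both tags, discarded blacklisted DNA tags and assigned RNA tags to GENCODE genes. The processing notes of the submitters also name CASAVA 1.8.2, STAR 2.5.0a and BWA 0.7.15-r1140. The numerical values deposited by the authors are p-values and q-values of a modified CHiCANE model. Only pairs with a q-value of at most 0.1 were deposited, and this column of q-values was used. The tables hold no counts per RNA, so their lines were counted, 1305107 in Input and 1415135 in H3K27me3-RADIP, and no replicate can be separated. An RNA or bin below the limit is not listed, and the fewest pairs in a listed combination of RNA and bin, over all regions of the RNA, were 7, so absence sets no upper limit on a share.

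Distances were taken between tag centres. Ratios are per table total, with exact conditional intervals. Shares have Wilson intervals and their differences Newcombe intervals. Counting error alone is covered. No test across RNAs was made. Calculations used Python 3.11.15, pandas 2.3.3, numpy 2.4.6, scipy 1.17.1, samtools 1.23.1 and matplotlib 3.10.9, and were tested on simulated data. Gene models were those of GENCODE M21, an older release than that of the study. Sequences were read from the RefSeq copy of the mm10 genome.

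The lncRNAs named are the 10 with the most pairs, the 5 with the highest and the 5 with the lowest ratio among those with at least 50 pairs, the 5 with the most pairs among those in 1 table only, the 5 with the most bins and the 5 with the most pairs over 1 Mb in each table, the leading RNAs of the chromosomes that differed most, members of the lists with at least 20 pairs and lncRNAs named by the study. Any other was picked with its values in view. The members and lists were chosen with earlier results of these data known. Alternatives were a q-value limit of 0.01, repeated positions counted once, leaving out leading or overlapping RNAs, shared combinations, equal weights, distance from the gene edge, other minimum numbers of pairs, any pair of the RNA, TMM scaling and a log2 limit of 0.5.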

Additional observations from a re-analysis of the deposited data

How the results depend on the processing

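No paired analysis was possible because the numbered libraries of each condition were merged into 1 table before deposit. The direction held for the share of the class, and for the most part for distance, but its size over 100 kb and over 1 Mb depended on which RNAs and bins were used. With a q-value limit of 0.01 the difference over 100 kb was 0.529 points, with an interval that includes 0 (-0.295 to 1.35), and the difference over 1 Mb was 0.612 points. At that limit 53 lncRNAs were at least 2-fold higher and 33 at least 2-fold lower. With repeated positions counted once these numbers were 68 and 43. Without the 10 leading lncRNAs the difference over 1 Mb was 0.329 points, and 41.4% and 52.1% of the combinations in Input and H3K27me3-RADIP were listed in 1 table only. Without lncRNAs overlapping a coding gene the difference over 100 kb was 0.0272 points, the ratio of the median distances 0.999, and the shares of combinations in 1 table only 38.3% and 49.8%. In combinations listed in both tables the difference was 0.0384 points for the share of the class, 0.442 over 100 kb (-0.422 to 1.31) and -0.0814 over 1 Mb. With equal weights it was 0.206 points over 1 Mb. With at least 10 pairs, 14.2% and 23.2% of lncRNAs were found in 1 table only. A log2 limit of 0.5 gave 139 higher and 108 lower, and a minimum of 50 pairs gave 16 and 5. Chosen after the data were seen, leaving out *Pvt1* gave 2.06 points over 100 kb and 0.869 over 1 Mb, and leaving out *Gm50252* as well gave 2.27 and 0.880. Also added later were leaving out tags inside a coding gene, which gave 0.287 points over 100 kb, and keeping lncRNAs found in both tables, which gave 0.0641 points for the class, 2.59 over 100 kb, 2.04 over 1 Mb and a ratio of the medians of 1.24. The cause of these changes was not tested. Counting lncRNAs with pairs in both tables alone, also chosen after the data were seen, gave 53 higher and 48 lower. Under these alternatives 47 values stayed within the counting interval or within 1.5 times the count given. Some of these are given above, among them the 0.529 points over 100 kb. The median distance from the gene edge was 0 kb in both tables, so no ratio of these medians could be given. The means were 203 and 364 kb. The part of depth was not tested.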

Other observations

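Intronic lncRNA tags were almost wholly in *cis*. The single lncRNA with *trans* pairs was *Gm47283*, annotated on chromosome Y, whose DNA tags lay in 1 bin of chromosome 9, chr9:123925000-123949999, with 17 pairs in Input and 11 in H3K27me3-RADIP (ratio 0.597, 0.253 to 1.35). By biotype, lincRNAs made up 50.2% of the Input pairs and 49.9% of the H3K27me3-RADIP pairs, processed transcripts 25.8% and 24.7%, and antisense RNAs 22.3% and 23.7%.

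Along the gene, the intronic tags were denser towards the 5′ end. In 5 equal parts of the gene from 5′ to 3′, the shares of lncRNA tags were 22.6%, 23.7%, 21.3%, 16.9% and 15.5% in Input and 23.02%, 23.03%, 22.0%, 16.6% and 15.3% in H3K27me3-RADIP. Those of pcRNAs were more even in both tables, but also highest in the first part, at 22.3% and 22.0%. They were lowest in the last part, at 17.4% and 17.6%. Without *Pvt1* and lncRNAs overlapping a coding gene the last part of the lncRNAs had 15.6% and 14.9%. The lncRNA with the highest ratio among those with at least 20 pairs in both tables together and pairs in both was *Gm40999* on chromosome 13, with 4 pairs in Input and 42 in H3K27me3-RADIP (9.68), chosen after its values were seen.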
